A study of Mus musculus with 3 samples.

Results

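The genes described here encode 49 nucleolar ribosome assembly factors of the mouse. They were matched by symbol from a fixed list, and all 49 were among the 50600 genes of the deposited tables. No measured value entered the match, though the list was chosen with earlier results of these data known. The tables come from 3 RNA-seq libraries of T-helper 1 (Th1) cells, primary CD4 T cells of strain C57BL/6NJ that were differentiated in culture. The libraries form 1 group with no control and are labelled biological replicates 1, 2 and 3. The file headers carry 24hr in the sample names, age is given as unknown and sex as not collected. All libraries share 1 donor entry, and the labels leave unsaid whether separate animals or cultures were used. The p-values therefore measure only how these samples vary, and that variation may be technical.

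Ribosomes are assembled in the nucleolus, where RNA polymerase I transcribes a long precursor of ribosomal RNA. Small nucleolar ribonucleoproteins (snoRNPs) modify the precursor, the small subunit processome folds and cleaves its 5' part, and separate sets of factors then assemble the 40S and 60S subunits for export. T cells that leave rest enlarge their nucleoli and make many new ribosomes before they divide, and the transcription factor MYC is a known activator of many of these genes.

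Levels are given in TPM (read pairs per base of exon, scaled to a fixed total in each library), computed here from the deposited counts and summed exon lengths, as mean ± SD over the 3 libraries, or for replicates 1, 2 and 3 in that order. Libraries held 2945353 to 3553547 counted read pairs. Pairs were counted with strand option 1, and the kit and the strand it reads are not given in the sources used here. Among mitochondrial mRNA genes, mt-Nd6, the only one on its strand, had 38715, 48536 and 51162 counts per kb, while mt-Nd5 opposite it had 2344, 2087 and 2805 and mt-Co1 2564, 1013 and 2221. Whether the option was set against the libraries was not tested. If it was, a count would come from RNA of the opposite strand or be a remainder of the gene's own mRNA. Every level below is therefore one of counts on the annotated strand and may not be the level of the named gene's mRNA. Genes whose exons share bases with an exon on the opposite strand, called overlapped below, were 16.2% of all genes and held 68.0%, 77.5% and 70.3% of the counts. All 5 T cell markers averaged above 1 TPM and summed to 259 to 508 TPM. The 5 Th1 markers summed to 23.0 to 24.1 TPM, of which Il12rb2 (opposite Serbp1) held 14.8 ± 2.01 TPM and Stat4 5.01 ± 1.87 TPM. Tbx21 had 15, 11 and 8 counts, while Ifng had 2, 2 and 1 counts and Cxcr3 2, 1 and 1, below the 3 counts that a count of 0 allows. The CD8 list summed to 7.87 to 13.1 TPM. Of the B cell genes, Cd79a had 19, 18 and 22 counts and Ms4a1 was at 0. The macrophage list summed to 163 to 169 TPM, nearly all on Csf1r (opposite Hmgxb3), with Lyz2 at 0, and both NK cell and both erythroid markers were at 0. The part of other cells in the levels below was not tested, and in bulk RNA fewer cells of a type and less RNA per cell cannot be told apart.

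The promoters of the ribosome assembly genes were searched for CACGTG, the E-box that MYC and related factors can bind, which reads the same on both strands. RefSeq promoters of GRCm38.p6 (mm10), running from 250 bases before to 50 after each gene's start, were matched by symbol for 43 of the 49 genes. The letters occurred for 10 of the 43 (23.3%), against 26.9% of 52 other ribosome assembly genes, 12.1% of 7139 detected protein-coding genes and 8.09% of all 27025 genes of the table. They begin 2 to 40 bases after the start in Pes1, Wdr43, Tsr1, Ltv1, Grwd1, Pno1, Utp20 and Mybbp1a, and 60 and 121 bases before it in Nop2 and Imp4. The promoters shown are those of the gene with the highest TPM in each role group that has such a gene, 5' to 3' on the gene's strand, with CACGTG in capitals. Mybbp1a lies at chr11:72441077-72441376 (plus strand), Wdr43 at chr17:71615965-71616264 (plus), Pno1 at chr11:17211540-17211839 (minus) and Nop2 at chr6:125131633-125131932 (plus).
Mybbp1a: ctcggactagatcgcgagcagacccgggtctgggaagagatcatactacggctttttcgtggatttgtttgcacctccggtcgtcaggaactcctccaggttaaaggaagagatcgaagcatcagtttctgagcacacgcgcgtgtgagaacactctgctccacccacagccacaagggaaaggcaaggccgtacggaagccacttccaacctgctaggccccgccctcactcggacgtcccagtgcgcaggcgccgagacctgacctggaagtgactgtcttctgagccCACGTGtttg
Wdr43: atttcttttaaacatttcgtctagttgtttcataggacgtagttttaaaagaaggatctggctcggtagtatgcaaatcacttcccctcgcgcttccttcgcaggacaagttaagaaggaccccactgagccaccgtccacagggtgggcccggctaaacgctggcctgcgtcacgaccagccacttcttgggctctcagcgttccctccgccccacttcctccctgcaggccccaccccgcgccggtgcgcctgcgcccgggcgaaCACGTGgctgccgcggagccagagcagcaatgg
Pno1: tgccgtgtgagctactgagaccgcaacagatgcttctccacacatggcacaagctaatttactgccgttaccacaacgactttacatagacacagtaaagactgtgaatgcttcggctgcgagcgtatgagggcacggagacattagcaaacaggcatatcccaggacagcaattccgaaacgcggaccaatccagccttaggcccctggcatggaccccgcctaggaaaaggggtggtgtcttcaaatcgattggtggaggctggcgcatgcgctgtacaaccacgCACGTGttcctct
Nop2: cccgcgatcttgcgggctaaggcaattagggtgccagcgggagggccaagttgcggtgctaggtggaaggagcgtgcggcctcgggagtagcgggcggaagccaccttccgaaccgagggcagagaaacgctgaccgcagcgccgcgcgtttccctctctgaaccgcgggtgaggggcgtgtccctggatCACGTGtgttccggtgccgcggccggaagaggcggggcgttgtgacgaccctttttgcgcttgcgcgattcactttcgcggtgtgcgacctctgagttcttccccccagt
The 10 genes with these letters had a median of 64.8 ± 13.1 TPM and the 33 without them 50.0 ± 12.0 TPM. A match describes the letters of this window and was not tied to binding of any factor.

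Each of the 49 genes reached at least 1 TPM in all 3 libraries, and also at least 5 TPM. Among all 21764 protein-coding genes 41.2% reached 1 TPM in all 3. The median over the 49 genes was 54.8 ± 11.1 TPM, against 0.386 ± 0.0703 TPM over all protein-coding genes. It was highest in replicate 1, at 62.3 TPM, and lowest in replicate 2, at 42.0 TPM. Per summed exon length, the levels ran from 8.44 ± 2.31 TPM for Wdr12 to 1850 ± 344 TPM for Npm1. Npm1, Ncl and Bysl, the last of them overlapped, together made up 49.9% ± 2.17 of the summed TPM of the 49 genes.

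**Figure D1:**
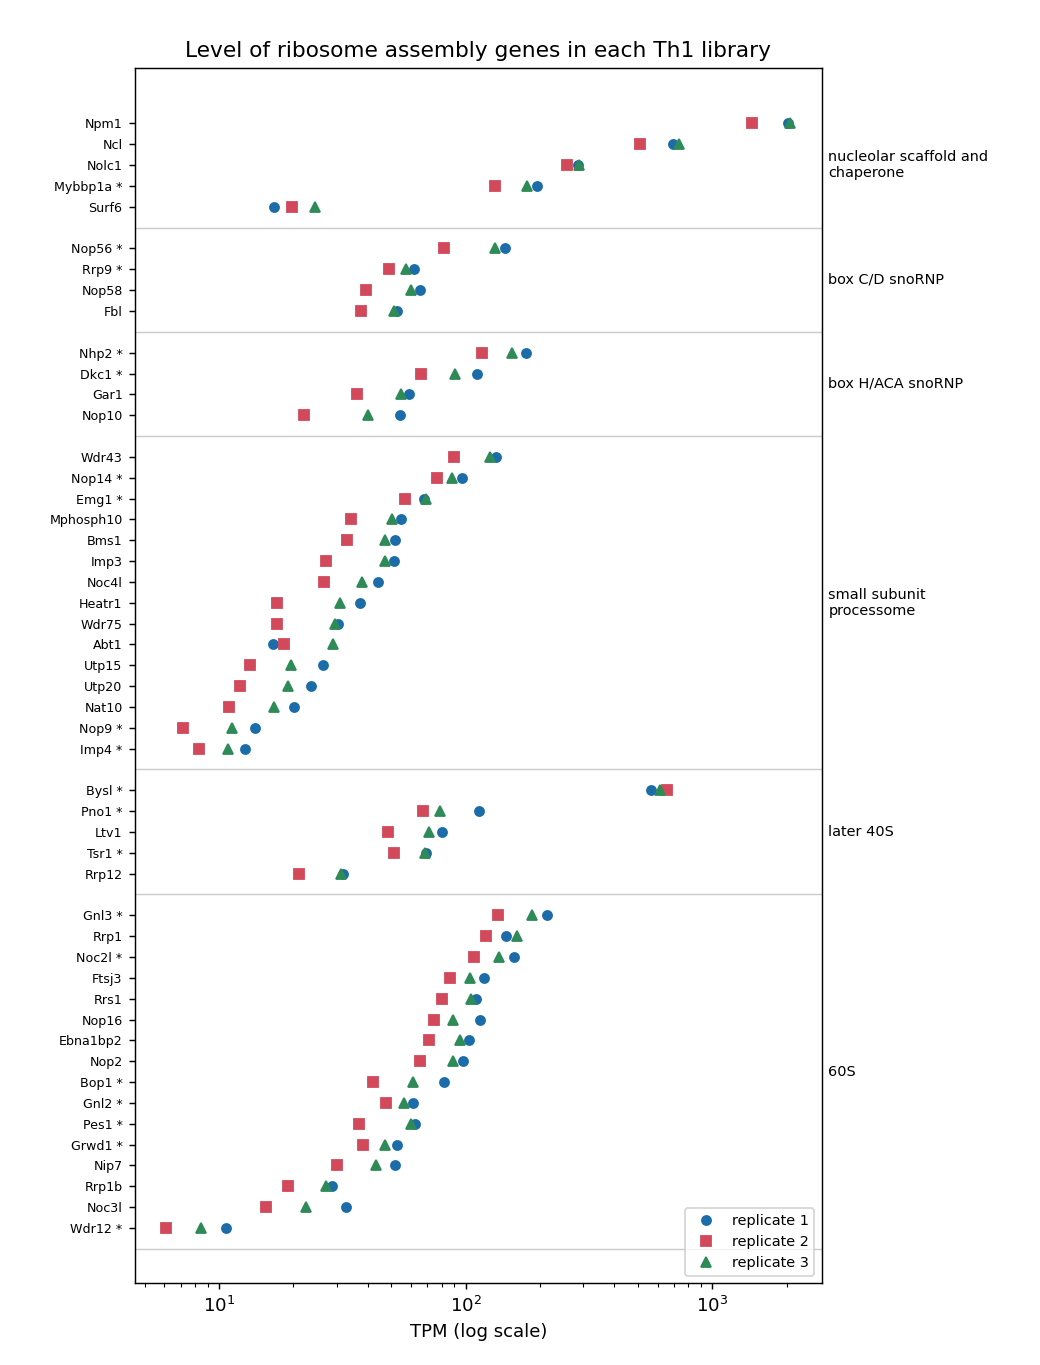
TPM (log scale) of each of the 49 genes in each library, by role in ribosome assembly; a star marks overlapped genes. Replicate 2 is the lowest library for 46 of the 49 genes, and Bysl, Surf6 and Abt1 are lowest in replicate 1.

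The nucleolar scaffold and chaperone genes stood highest, with a median of 277 ± 17.6 TPM over 5 genes. Npm1 encodes the nucleolar chaperone nucleophosmin (ENSMUSG00000057113, mm10 chromosome 11, 33152287 to 33163206) and had 2024, 1453 and 2072 TPM. Ncl encodes the RNA-binding protein nucleolin (ENSMUSG00000026234, chromosome 1, 86344719 to 86359400) and had 690, 507 and 734 TPM. Both had their lowest TPM in replicate 2, and the ratio of Npm1 to Ncl varied little, at 2.93, 2.87 and 2.82. Nolc1, which encodes a chaperone of snoRNPs, had 286, 257 and 289 TPM. Surf6, a nucleolar matrix protein gene, was the lowest of these genes with 16.7, 19.8 and 24.4 TPM, and replicate 1 was its lowest library. Npm1 has processed pseudogenes and the file headers list no option to count pairs that map to several places, so its level is uncertain.

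Genes of the box C/D snoRNP, which places 2'-O-methyl groups on ribosomal RNA, had medians of 63.5, 44.2 and 58.6 TPM. Nop56, a core scaffold protein gene, had 145, 81.8 and 131 TPM, with replicate 2 well below the others. Rrp9, which encodes a protein of the U3 snoRNP, averaged 55.9 ± 6.51 TPM, and Fbl, which encodes the methyltransferase fibrillarin, was lowest at 47.1 ± 8.25 TPM. The order within this particle depended on the gene length used. Per summed exon length Nop56 stood at 2.16 ± 0.0836 times its partner Nop58. Per length of the principal transcript it stood at 0.751 ± 0.0291 times, since the exons of Nop58 sum to 10758 bases and its principal transcript has 1713. With those lengths, an alternative chosen after the values were seen, Nop58 stood at 277 ± 64.5, Nop56 at 210 ± 55.6, Fbl at 133 ± 21.3 and Rrp9 at 83.1 TPM. Pairs counted on all exons were divided by the principal length, so such values may be too high where the lengths differ most, as for Nop58.

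Genes of the box H/ACA snoRNP, which turns uridine into pseudouridine, had medians of 84.7, 51.2 and 72.4 TPM. Nhp2 was highest with 176, 117 and 154 TPM, followed by Dkc1, which encodes the pseudouridine synthase dyskerin, with 111, 66.1 and 90.1 TPM. Nop10, which encodes a small protein of the particle, was lowest, averaging 38.8 TPM, with 54.1 TPM in replicate 1 and 22.2 TPM in replicate 2. All of these were lowest in replicate 2. Relative to Dkc1 in the same library, Nhp2 was at 1.69 ± 0.0933, Gar1 at 0.563 ± 0.0382 and Nop10 at 0.423 ± 0.0789. The order Nhp2, Dkc1, Gar1, Nop10 held in each library with both lengths.

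The 15 small subunit processome genes had the lowest median of the 6 role groups, 28.8 ± 9.61 TPM. Wdr43, a processome subunit gene, was highest with 133, 89.4 and 126 TPM, and Nop14 followed with 96.2, 76.5 and 88.2 TPM. Imp4, with 12.8, 8.29 and 10.9 TPM, and Nop9, with 14.0, 7.12 and 11.3 TPM, were lowest, and their means (10.7 and 10.8 TPM) differed by less than their spread. The protein of Imp4 forms a complex with those of Imp3 and Mphosph10, which averaged 41.8 ± 12.8 and 46.5 ± 10.8 TPM. Imp3 exceeded Imp4 in every library, 3.87 ± 0.526 times per exon length and 2.64 ± 0.359 times per principal transcript length. The methyltransferase gene Emg1 stood at 64.7 ± 6.65 TPM per exon length and at 233 ± 20.5 TPM per principal transcript length. Abt1, whose yeast relative acts in the processome, went the other way, with 21.2 ± 6.70 and 4.90 ± 1.53 TPM. Per principal transcript length Emg1 had the highest value and Abt1 the lowest of the group. The counted exons, of GENCODE release M13, sum to 4632 bases for Emg1 and 1278 for Abt1. Their principal transcripts, of release M21, have 1034 and 4456 bases. For Abt1 that length exceeds the counted exons, so its 4.90 TPM is not comparable with the values of other genes. By less, it also exceeds them for Gnl3, Bop1, Heatr1, Rrp12 and Utp15. For Emg1, pairs on all 4632 bases were divided by 1034, so its 233 TPM may be too high.

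Among the 5 genes of later 40S assembly the median was 67.5 ± 15.0 TPM, and Bysl stood apart from the rest. It encodes bystin, a factor of 18S ribosomal RNA maturation (ENSMUSG00000023988, chromosome 17, 47599331 to 47611492), and had 565, 657 and 613 TPM. Replicate 2 was its highest library and the lowest of the other 4 genes. Pno1, an RNA-binding factor of pre-40S particles, followed with 113, 67.3 and 78.8 TPM, and Rrp12 was lowest with 31.7, 21.1 and 31.2 TPM. Within a library Bysl was 7.03, 13.5 and 8.62 times Ltv1, an export adaptor gene. Bysl is overlapped, sharing 361 exon bases with Ccnd3 on the opposite strand, so these counts cannot be assigned to Bysl alone.

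The 16 genes of 60S assembly had a median of 73.6 ± 16.6 TPM, and replicate 2 was the lowest library for each of them. Gnl3, which encodes the GTPase nucleostemin, was highest per summed exon length, with 214, 135 and 186 TPM. Rrp1 followed with 146, 121 and 162 TPM, 5.79 ± 0.638 times its relative Rrp1b. Per principal transcript length the order turned round, with Rrp1 at 193 ± 25.2 TPM and Gnl3 at 138 ± 29.2 TPM. For Rrp1 that length is 1984 bases, against 3337 of counted exons, and for Gnl3 it is 1947 against 1883. Bop1, Pes1 and Wdr12 encode the 3 proteins of the PeBoW complex, which acts in maturation of the large subunit RNAs. Bop1 had 82.0, 42.0 and 60.9 TPM and Pes1 62.3, 37.1 and 60.2 TPM, while Wdr12 had 10.7, 6.12 and 8.46 TPM and was the lowest of the group per summed exon length. Per principal transcript length it stood at 28.4 ± 7.34 TPM and Noc3l, at 18.9 ± 6.64 TPM, was lower. The exons of Wdr12 sum to 11955 bases and its principal transcript has 2850, so its 28.4 TPM may be too high. Wdr12 stood at 0.159 ± 0.0167 of Pes1 per exon length and at 0.644 ± 0.0673 of it per principal transcript length, below both partners in every library with either length.

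Of the 49 genes 19 shared exon bases with a gene on the opposite strand, each with a single partner, and counts on these genes cannot be assigned to the gene alone. The exons are those of GENCODE release M13, used for the counting. With opposite-strand exons of release M21, Rrp1b also had a partner (Hsf2bp) and Gnl3 had none. By gene spans, the genes met tail to tail in 12 pairs and head to head in 5. In 1 the ribosome assembly gene (Pno1) lay inside its partner, and in 1 the partner lay inside the gene (Nop14). In the head-to-head pairs of Imp4 and Pes1, the shared exon bases lay nearer the gene's 3' end. The shared bases ranged from 5 (Nop56) to 1240 (Tsr1). The median was 69.4 ± 12.5 TPM over the 19 overlapped genes and 45.2 ± 10.3 TPM over the other 30. Over all protein-coding genes it was 5.05 ± 0.977 TPM with overlap and 0 TPM without.

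**Figure D2:**
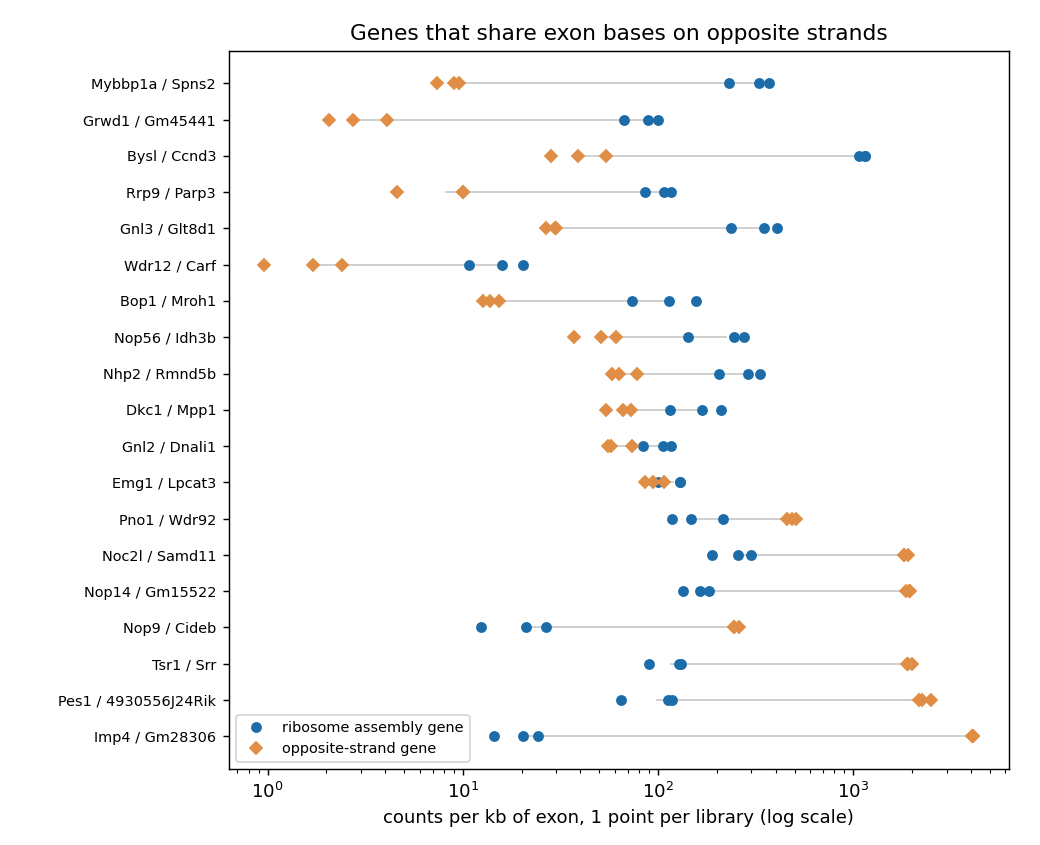
Counts per kb of exon (log scale) of each of the 19 overlapped genes and of its opposite-strand gene, 1 point per library. The opposite-strand gene is higher in 7 pairs and the ribosome assembly gene in 12, while for Emg1 and Lpcat3 the order differs between libraries.

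In 7 pairs the opposite-strand gene had more counts per kb of exon, by 3.02 to 207 times. Imp4 had 208, 124 and 174 counts, 19.7 ± 4.94 per kb, and its antisense gene Gm28306 2177, 2174 and 2138, 4089 ± 41.0 per kb, with 209 shared bases (chromosome 1, 34444522 to 34444730). Pes1 had 358, 196 and 340 counts, 98.5 ± 29.4 per kb, and 4930556J24Rik 3040, 2655 and 2727, 2301 ± 168 per kb. Tsr1, a GTPase-like 40S factor gene, had 503, 343 and 490 counts, 116 ± 23.2 per kb, and Srr, the serine racemase gene, 8618, 9127 and 8671, 1931 ± 61.4 per kb. In none of these 3 pairs did the values per kb overlap. Noc2l, a 60S factor gene, had 248 ± 55.7 counts per kb and Samd11 1852 ± 51.7. Nop14 had 160 ± 24.8 and its antisense gene Gm15522 1915 ± 43.4. Nop9 had 20.0 ± 7.10 and Cideb 250 ± 8.89, and the 1141 shared bases were 76.4% of the exons of Cideb. Pno1 had 160 ± 49.5 and Wdr92 483 ± 27.1. The values per kb did not overlap in these pairs either.

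In the other 12 pairs the ribosome assembly gene had more counts per kb, by 1.24 to 35.9 times. Bysl had 4142, 4428 and 4414 counts and Ccnd3, the gene of cyclin D3, 477, 249 and 343, with 361 shared bases at both 3' ends (chromosome 17, 47599331 to 47599691). Per kb Bysl stood at 19.8, 40.5 and 29.3 times Ccnd3. For Emg1 and Lpcat3 the ratio per kb was 1.36, 0.926 and 1.51, so that the order turned round in replicate 2. For Gnl2, a 60S GTPase gene, and Dnali1 it was 2.11, 1.13 and 1.84. Mybbp1a, which encodes a Myb-binding nucleolar protein, stood at 35.9 times Spns2, and Grwd1 at 28.7 times Gm45441, which had 4, 3 and 6 counts. The other pairs were Rrp9 with Parp3, Gnl3 with Glt8d1, Wdr12 with Carf, Bop1 with Mroh1, Nop56 with Idh3b, Nhp2 with Rmnd5b and Dkc1 with Mpp1, at 2.57 to 12.6 times. On the same strand, Ncl, Nop56 and Nop58 shared exon bases with snoRNA or miRNA genes, all listed with 0 counts.

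Replicate 2 stood below the other libraries for most of these genes. Scaled to library totals, 46 of 49 were lowest in replicate 2, against 64.1% of the 10216 genes that passed a low-count filter. Among genes without overlap this held for 28 of 30, against 81.9% of all such genes, and among overlapped genes for 18 of 19, against 40.1%. These shares cover genes of every type. Among protein-coding genes alone it held for 6378 of 8620, with 4713 of 5576 without overlap and 1665 of 3044 overlapped. The median ratio of replicate 2 to the mean of the others was 0.752 for the 49 genes and 0.769 for all genes tested. It was 1.18 for the opposite-strand partners, and in 16 of 19 pairs it was lower in the ribosome assembly gene than in its partner. In the 7 pairs where the partner had more counts per kb, the gene's ratio was 0.616 to 0.905 and the partner's 1.08 to 1.25. The exceptions above 1 were Bysl at 1.21, whose partner Ccnd3 was at 0.716, and Surf6 at 1.05. With TMM scaling, the median ratio of the 49 genes was 0.95 and 29 of 49 were lowest in replicate 2, against 42.6% of all genes tested. The share of counts on overlapped genes was also highest in replicate 2, at 77.5%, and its part in these ratios was not tested.

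**Figure D3:**
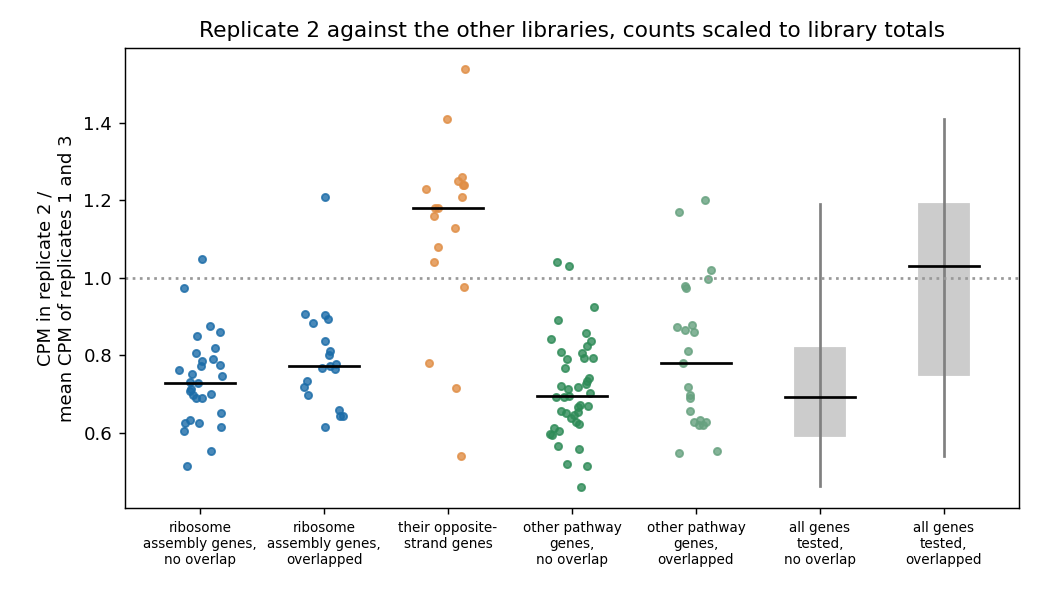
Ratio of CPM in replicate 2 to the mean CPM of replicates 1 and 3, scaled to library totals. Points are single genes with the median as a line; boxes span the 25th to 75th percentile and lines the 5th to 95th of all genes tested. Ribosome assembly genes lie mostly below 1, with medians of 0.730 without and 0.773 with overlap, and their opposite-strand genes mostly above 1.

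Each gene was then tested for a difference between libraries beyond counting error, by a chi-square test at library sizes scaled by TMM, which removes a shift that most genes share. Of the 49 genes 16 differed at an adjusted p under 0.05, or 32.7%. This was near the share of all genes tested (35.6%) and of the protein-coding ones (29.0%), but not within either overlap class. Of the 19 overlapped genes 5 differed (26.3%), against 53.0% of all overlapped genes tested and 42.1% of the protein-coding ones. Of the 30 without overlap 11 differed (36.7%), against 22.7% of all such genes and 21.8% of the protein-coding ones. The median log2 CPM of the 49 genes deviated from its mean by 0.03, -0.05 and 0.03, a range of 0.08 against 0.04 over all genes. With plain library totals 43 of the 49 differed, or 87.8%, against 51.7% of all genes, and the range was 0.46 against 0.40. This test calls a shift of a given size more readily at higher counts, and the part of count depth in these shares was not tested. Without replicate 2 the number was 8 of 49, or 16.3%, against 9.04% of all genes: Npm1, Ncl, Bysl, Nolc1, Rrp1, Surf6, Abt1 and Pno1. Without replicate 1 it was also 8, or 16.3%, against 24.4% of all genes.

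**Figure D4:**
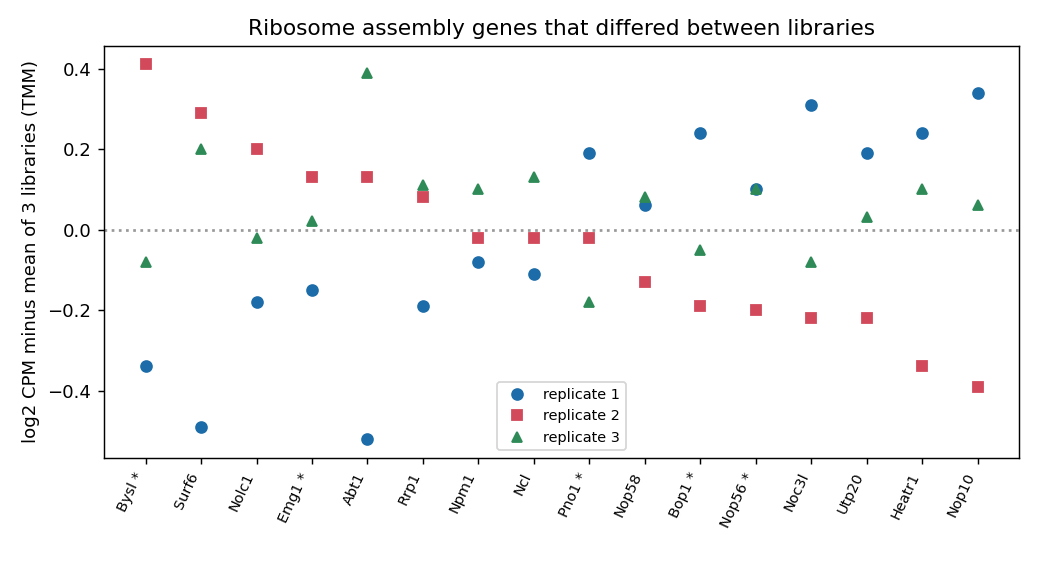
Deviation of log2 CPM (TMM scaling) from the mean of the 3 libraries for the 16 genes that differed between them; a star marks overlapped genes. Replicate 2 is far above the others for Bysl and far below them for Nop10 and Heatr1, and replicate 1 is far below for Surf6 and Abt1.

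The 16 genes did not share a direction, and the order of the libraries in this paragraph and the next is that after TMM scaling. Replicate 2 was the lowest library for 7 of the 49 genes that were called, or 14.3%, against 11.0% of all genes tested: Nop56, Nop58, Bop1, Heatr1, Utp20, Noc3l and Nop10. Heatr1, a processome subunit gene, had 463, 197 and 376 counts and log2 deviations of 0.24, -0.34 and 0.10 (chi-square test, Benjamini-Hochberg adjusted p = 7.08e-05). Nop56 had 1132, 586 and 1007 counts and deviations of 0.10, -0.20 and 0.10 (chi-square test, adjusted p = 0.000331). In Heatr1 and Nop56 alike, replicate 2 stood apart below the others. All 7 calls were lost without replicate 2, where the adjusted p of this chi-square test was 0.0650 (Noc3l) to 0.982 (Nop56). Because the 7 genes were picked for a low replicate 2, that loss is no separate support. With TMM from genes without overlap, 6 of the 7 were lost, at an adjusted p of 0.0940 (Noc3l) to 0.449 (Nop58) by the chi-square test, and Heatr1 stayed at 0.0329. Nop10 had 114, 43 and 83 counts and the highest adjusted p of the 7 (0.0362 by the chi-square test), which was 0.0539 with DESeq2 size factors and 0.0613 with no filter on low counts.

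Replicate 1 was the lowest library for 8 of the 49 genes that were called, or 16.3%, against 19.6% of all genes tested: Npm1, Ncl, Bysl, Nolc1, Rrp1, Emg1, Surf6 and Abt1. In TPM, replicate 1 was the lowest for Bysl, Surf6 and Abt1 and replicate 2 for the other 5. Bysl deviated by -0.34, 0.41 and -0.08 (chi-square test, adjusted p = 1.92e-131), with replicate 2 the highest. Ncl had 13361, 9023 and 13983 counts and deviated by -0.11, -0.02 and 0.13 (chi-square test, adjusted p = 4.61e-39). Npm1 had 10253, 6771 and 10320 counts and deviated by -0.08, -0.02 and 0.10 (chi-square test, adjusted p = 3.83e-17). In Ncl and Npm1 the deviations were small and replicate 3 was the highest library. Bysl, Ncl and Npm1 stayed past the threshold under the other scalings, with no filter on low counts and without each replicate. By the same chi-square test, Nolc1 was lost with library totals (adjusted p = 0.335) and Rrp1 without replicate 1 (0.770). Emg1 was lost with library totals (0.190), without replicate 1 (0.461) and without replicate 2 (0.185). Surf6 had 129, 141 and 186 counts and deviated by -0.49, 0.29 and 0.20 (chi-square test, adjusted p = 2.74e-05, and 0.792 without replicate 1). Abt1, with 40, 41 and 69 counts, deviated by -0.52, 0.13 and 0.39 (chi-square test, adjusted p = 0.0115, 0.533 without replicate 1 and 0.0692 without replicate 3). In Surf6 and Abt1 replicate 1 stood apart below the others in deviation. For Abt1 this rests on few counts, and replicates 1 and 2 alone did not differ past the threshold. Pno1 was lowest in replicate 3, with deviations of 0.19, -0.02 and -0.18 (chi-square test, adjusted p = 0.0196, and 0.471 without replicate 1).

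Other genes of the pathway, a list also chosen with earlier results of these data known, stood lower on the median. Of 68 listed genes 67 were matched and 66 detected, with a median of 28.6 ± 7.75 TPM against 54.8 ± 11.1 TPM for the 49 genes. The highest were Rsl1d1, a nucleolar protein gene, with 283, 164 and 264 TPM, Krr1, a processome factor gene (opposite Glipr1), with 183, 164 and 182 TPM, and Nol7 (opposite Ranbp9) with 199, 145 and 164 TPM. Replicate 2 was lowest in each. Of the 66 genes tested 19 differed between libraries, or 28.8%, against 35.6% of all genes and 29.0% of protein-coding genes. Without replicate 2 the number was 5, while 9.04% of all genes differed. Scaled to library totals, 58 of the 66 were lowest in replicate 2. Their median ratio of replicate 2 to the others was 0.707, and 5 genes, named here for that reason, were above 1: Rrp7a (opposite Serhl) at 1.20, Rrp8 (opposite Ilk) at 1.17, Zfp622 at 1.04, Nol12 at 1.03 and Dimt1 (opposite Kif2a) at 1.02.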

How the data were processed

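The authors deposited raw counts of read pairs per gene for 3 libraries. Per the file headers, featureCounts 1.4.6-p4 counted pairs over the exons of each gene of GENCODE release M13, requiring that both ends aligned, with strand option 1. The build is mm10, per the labels. The assay is labelled total RNA-seq, and the protocol document named in the labels is for polyA+ RNA. For the aligner, a version is not given in the sources. Symbols came from GENCODE release M21, which matched 50376 identifiers and left 224 without one.

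TPM, FPKM and CPM were computed here from the counts. Library totals were 3553547, 2945353 and 3369468 in replicates 1, 2 and 3, where 3 counts are 0.844, 1.02 and 0.890 CPM, a floor that covers counting error only. For differences between libraries, the counts of each gene were compared with Poisson expectation at TMM library sizes from edgeR (chi-square, 2 degrees of freedom), over 10216 genes that passed filterByExpr, with Benjamini-Hochberg adjustment over all of them. The biological coefficient of variation over all genes was 0.179. log2 CPM used a prior count of 2. Principal transcripts were the shortest APPRIS principal ones of M21. Values per that length divide all counts of a gene by it, including counts on its other exons. Genes named by rule are the 2 highest and the lowest of each role group, those that overlap an opposite-strand exon, those that differed between libraries, and the 3 highest other pathway genes; other genes were named after their values were seen, and the ratio of replicate 2 to the others was chosen likewise. The genes and lists were chosen with earlier results of these data known. Alternatives were other scalings and filters, FPKM, other lengths, DESeq2 size factors and leaving out each replicate. Versions were edgeR 4.0.16, DESeq2 1.42.0 (both in R 4.3.3) and pandas 2.3.3.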

Additional observations from a re-analysis of the deposited data

How the results depend on the processing

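All 49 genes were detected at 5 TPM, at 10 counts, as TPM over protein-coding genes and without each replicate, and 12 of 19 overlapped genes exceeded their partner with and without division by length and without each replicate. The number of genes that differed between libraries was 16 of 49, against 35.6% of all genes tested. It was 15 with DESeq2 size factors, against 34.7% of all genes. With TMM from genes without overlap it was 15, against 33.3% (lost were Nop10, Nop56, Nop58, Utp20, Bop1, Noc3l and Pno1, and 6 were gained). With library totals it was 43, against 51.7%. Without replicates 1, 2 and 3 it was 8, 8 and 16, against 24.4%, 9.04% and 37.0% of all genes. For other ribosome assembly genes the number was 19 of 66. It was 49 with library totals and 6 at a chi-square adjusted p under 0.01, against 51.7% and 26.5% of all genes. Without replicates 1, 2 and 3 it was 14, 5 and 20, against 24.4%, 9.04% and 37.0% of all genes. The median of 54.8 TPM was 30.5 as FPKM and 135 as TPM over protein-coding genes. For overlapped genes the median of 69.4 TPM was 38.7 and 171, and for those without overlap 45.2 TPM was 25.2 and 111, which follows from the other denominators. The range of library medians in log2 CPM, 0.08, was 0.46 with library totals (0.40 over all genes), 0.13 with TMM from genes without overlap (0.17 over all genes) and 0.02 to 0.12 without each replicate. The principal transcript length, added after the data were seen, moved 18 of 49 genes by more than 1 SD. Other causes were not tested. No paired analysis was possible because there is 1 group. Depth limits the genes of low counts most, such as Abt1 and Nop10.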
